A study of Mus musculus with 3 samples.

Results

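Interferon-induced genes are the genes that cells switch on when interferons, the cytokines of antiviral defence, bind their receptors. The 46 genes described here were chosen by symbol from that response, with earlier results of these data known. All 46 had a value in every library, among 15503 genes listed in the 3 deposited tables. They fall into 35 type I effectors (with the ISG15 system, the PARP group and the RNA sensors), 8 GTPases typical of the response to interferon gamma, and 3 regulators. Type I interferons signal through Ifnar1 and Ifnar2 to a complex that includes Stat2 and Irf9 and binds interferon-stimulated response elements. Interferon gamma signals through Ifngr1 and Ifngr2, and its response is read at gamma-activated sites. Tonic interferon signalling is known to keep a low level of such genes in tissues without infection.

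RNA from the left ventricle of C57BL6J mice was sequenced as 1 pool of 3 mice per genotype. Egln1_Tie2Cre mice lack Egln1, which encodes the oxygen-sensing enzyme PHD2, in cells where the Tie2 promoter has driven Cre recombinase, that is endothelial and blood-forming cells. Egln1_Hif2a_Tie2Cre mice are labelled as lacking Hif2a (gene Epas1) as well, with the same Cre. Egln1_floxed mice carry the floxed Egln1 gene and are the controls, which the series' design text calls wild type. The sources used here give neither the age nor the sex of the mice. By its title the study is on the heart after endothelial PHD2 loss, and the comparisons ask what differs when Egln1 is deleted and when Hif2a is deleted with it. With 1 pool per genotype there is no spread between samples, so no test between genotypes was possible and every difference below is a difference between single libraries. Depth is unknown because FPKM values, fragments scaled by transcript length and library total, do not keep it.

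The targeted genes and library quality were read first. Egln1 had an FPKM of 95.7 in the Egln1_Tie2Cre library, 129.0 in the library labelled Egln1_Hif2a_Tie2Cre and 129.5 in the Egln1_floxed library. The second of these values does not show the loss of Egln1 that its label states. Cells outside the reach of Tie2Cre, such as cardiomyocytes, keep the gene, and their RNA is part of a whole ventricle value. Epas1 had 65.0, 54.5 and 77.4 FPKM in the same order, with the lowest value in the library labelled Egln1_Hif2a_Tie2Cre. The Egln1_Tie2Cre library stood apart from the others in genes with near-identical copies. Against the Egln1_floxed library, 201 of 260 pseudogenes with a mean FPKM of at least 1 were at least 1.5-fold higher, and 383 of 981 coding genes with a copy were at least 1.5-fold lower. The coding genes without such a copy numbered 10193, and by that measure 567 were lower and 787 higher. Cardiomyocyte markers were abundant in all 3 libraries, with summed FPKM of 21380, 22666 and 21924 over the 5 of 6 markers that had a value in each.

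The interferon-induced genes as a group were lowest in the Egln1_Tie2Cre library. In whole ventricle RNA, fewer cells of a type and less RNA per cell cannot be told apart. With 1 library per genotype, a trait of the library cannot be told from one of the genotype. The lowest FPKM of the 3 libraries was in Egln1_Tie2Cre for 41 of the 46 genes (89.1%), against 37.9% of 14897 genes with a value in every library. The library labelled Egln1_Hif2a_Tie2Cre held the lowest value for 2 of the genes, against 32.3% of all genes, and the Egln1_floxed library for 3, against 29.8%. The highest value was in the Egln1_Tie2Cre library for 2 genes, against 37.5% of all genes. It was in the library labelled Egln1_Hif2a_Tie2Cre for 24, against 31.7%, and in the Egln1_floxed library for 20, against 30.7%. Summed over the 46 genes, FPKM was 288.8 in the Egln1_Tie2Cre library, 408.1 in the library labelled Egln1_Hif2a_Tie2Cre and 407.9 in the Egln1_floxed library. The median gene had 4.16, 6.52 and 7.29 FPKM in the same order. Within each library the genes spanned a wide range of levels. Ifi27 was the most abundant in every library, at 47.9, 52.1 and 43.6 FPKM in the same order, and Oas3 the least, at 0.0868, 0.209 and 0.144 FPKM.

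**Figure D1:**
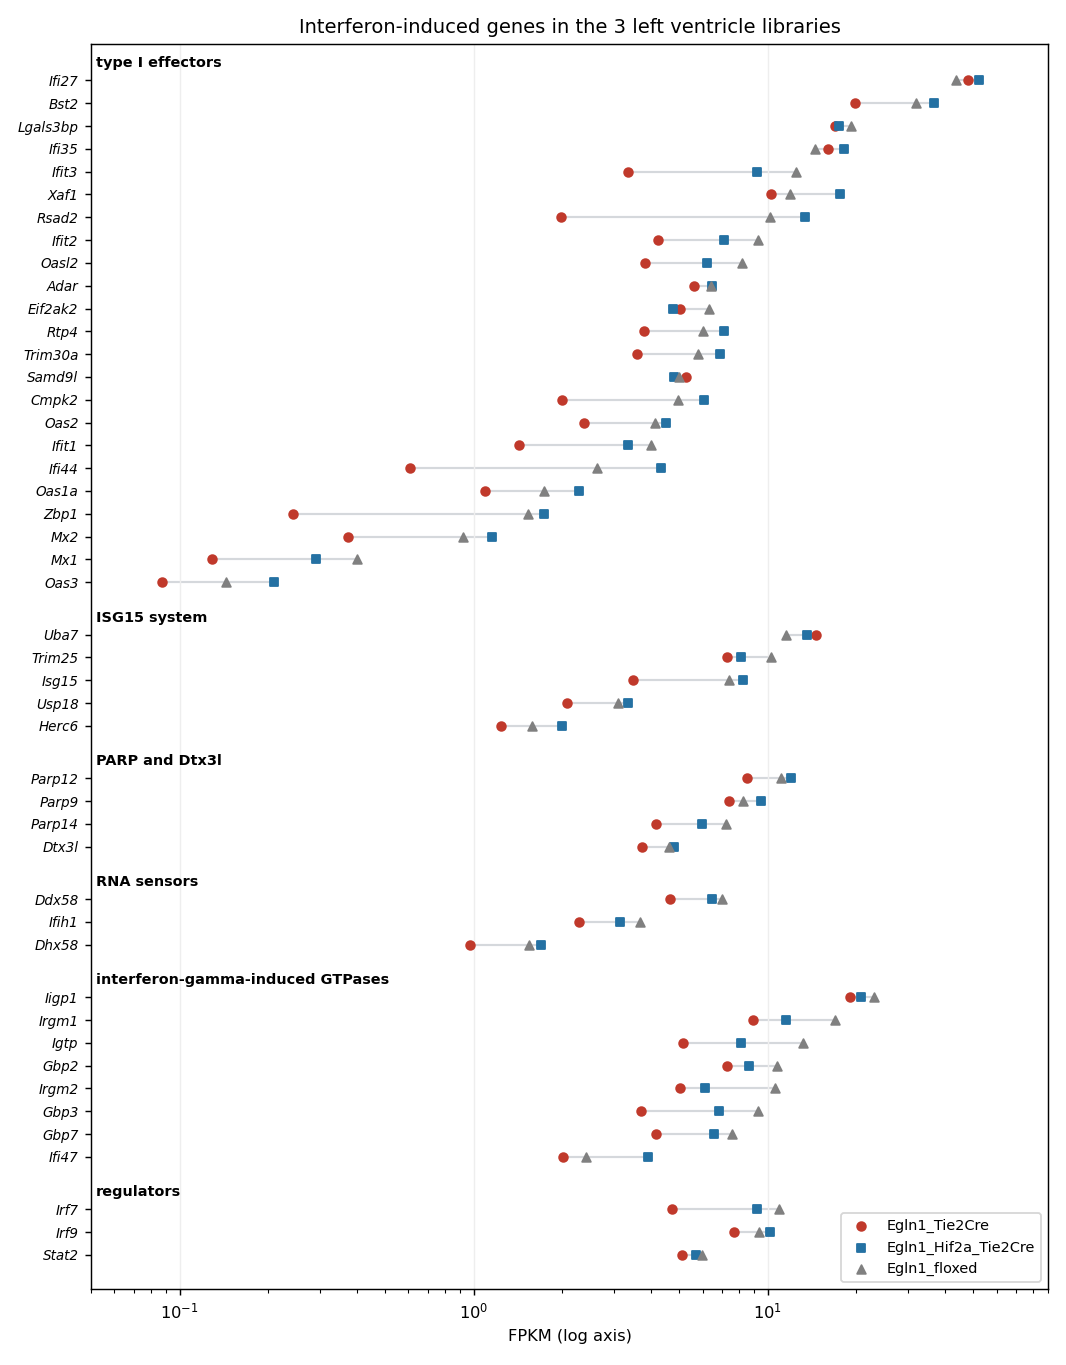
FPKM (log axis) of each of the 46 interferon-induced genes in the Egln1_Tie2Cre (circles), Egln1_Hif2a_Tie2Cre (squares) and Egln1_floxed (triangles) libraries, with 1 pool of 3 mice each and genes grouped by role. The circle is the leftmost symbol for 41 of 46 genes, and the distance between symbols is widest for Rsad2, Ifi44 and Zbp1.

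In numbers of genes, 42 members were kept at a mean FPKM of at least 1, and 17 of them stood lower by at least 1.5-fold in Egln1_Tie2Cre than in Egln1_floxed, on the scale of FPKM + 1. Over all 11978 genes kept, 8.73% were lower by that measure. A value at least 1.5-fold higher was found for 0 members, against 9.46% of all genes. At a 2-fold difference the counts were 7 members lower and 0 higher, against 3.84% and 3.93% of all genes. The median log2 ratio of the members was -0.50, against 0.02 for all genes, and 38 of the 42 members lay below 0, against 48.1% of all genes. The members not kept were Zbp1, Mx1 and Mx2, which were too low, and Oas3, which had no row in that table. Most members are of low abundance, and among the 8732 genes with a mean FPKM of 1 to 20 the share at least 1.5-fold lower was 8.14%. Among the 20 members kept that neither overlap another gene's exons nor have a near-identical copy, 10 were at least 1.5-fold lower, against 6.09% of all such genes, and the median was -0.56. In the authors' deposited table, 0 of 45 listed members had a q-value of at most 0.05, against 0.465% of all genes listed, and the smallest was 0.685 for Rsad2.

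**Figure D2:**
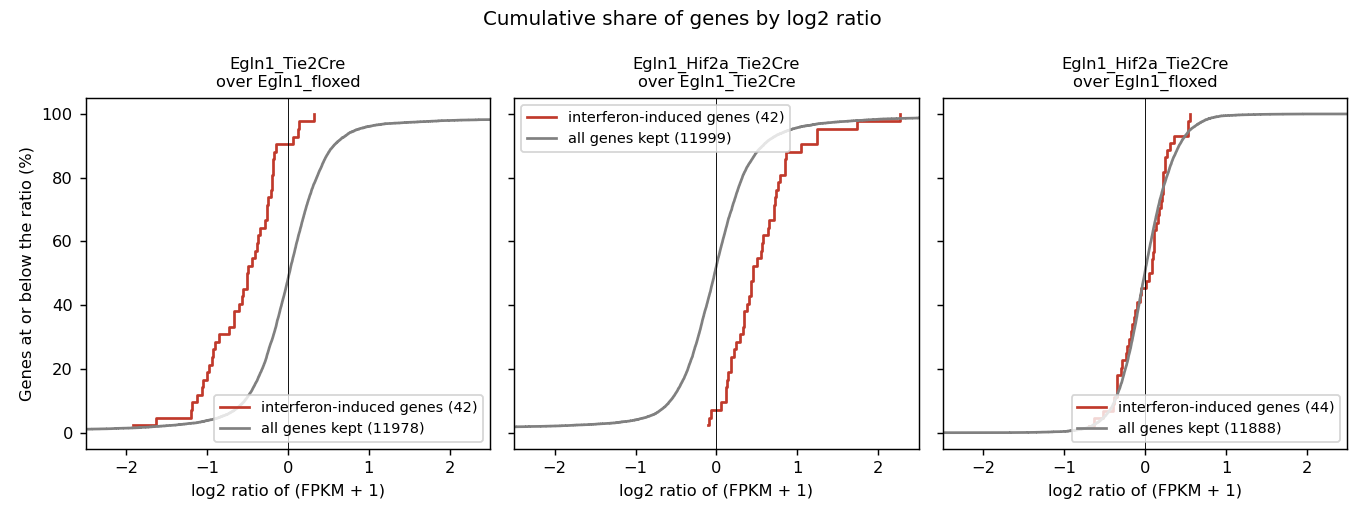
Cumulative share of genes (%) by log2 ratio of (FPKM + 1) in the 3 comparisons, for the interferon-induced genes kept (red) and all genes kept (gray); ratios beyond 2.5 in either direction are not drawn. The red curve lies left of the gray one for Egln1_Tie2Cre over Egln1_floxed (medians -0.50 and 0.02), right of it for Egln1_Hif2a_Tie2Cre over Egln1_Tie2Cre (0.45 and -0.02), and near it for Egln1_Hif2a_Tie2Cre over Egln1_floxed (0.07 and 0.00).

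Promoter windows were searched for the letters that the interferon response reads. RefSeq windows of 300 bases, 250 before and 50 after each start (build GRCm38.p6), were on hand for 35 of the 46 genes, and those of 11 members were not analysed here. The core of the interferon-stimulated response element, here GAAA and GAAA with 2 bases of any kind between them on either strand, was found in 18 of these 35 genes (51.4%) at any listed start, against 3.99% of all 27025 genes with a window. The gamma-activated site, TTCNNNGAA, which reads the same on both strands, was found in 9 of the 35 (25.7%), against 9.55% of all genes. In Bst2 the matches of both motifs overlapped. By class, the response element core was found in 11 of 25 type I effectors, 6 of 7 GTPases and 1 of 3 regulators. TTCNNNGAA was found in 6 of the same 25, 3 of the 7 and 0 of the 3. The match is a description of letters and does not show that a factor binds. Windows are shown for 5 genes, which are among those at least 1.5-fold lower in Egln1_Tie2Cre and carry matches in different numbers and on both strands. They run 5′ to 3′ on the gene's strand, and capitals mark the response element core, read as TTTC and TTTC where it lies on the other strand. The window of Rsad2 lies at chr12:26456403-26456702 on the minus strand, that of Ifit3 at chr19:34583279-34583578 on the plus strand, that of Isg15 at chr4:156200769-156201068 on the minus strand, that of Irgm1 at chr11:48871371-48871670 on the minus strand and that of Gbp3 at chr3:142559794-142560093 on the plus strand.
Rsad2: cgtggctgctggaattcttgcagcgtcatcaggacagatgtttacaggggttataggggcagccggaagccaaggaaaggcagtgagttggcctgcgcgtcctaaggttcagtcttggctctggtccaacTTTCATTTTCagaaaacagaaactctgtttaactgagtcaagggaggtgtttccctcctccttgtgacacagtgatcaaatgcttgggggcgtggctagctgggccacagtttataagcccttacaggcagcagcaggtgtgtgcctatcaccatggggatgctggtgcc
Ifit3: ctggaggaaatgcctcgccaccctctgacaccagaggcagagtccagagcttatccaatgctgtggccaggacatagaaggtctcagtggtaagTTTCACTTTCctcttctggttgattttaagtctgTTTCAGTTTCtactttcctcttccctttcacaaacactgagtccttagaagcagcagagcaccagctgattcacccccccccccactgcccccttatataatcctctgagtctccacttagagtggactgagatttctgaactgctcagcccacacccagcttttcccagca
Isg15: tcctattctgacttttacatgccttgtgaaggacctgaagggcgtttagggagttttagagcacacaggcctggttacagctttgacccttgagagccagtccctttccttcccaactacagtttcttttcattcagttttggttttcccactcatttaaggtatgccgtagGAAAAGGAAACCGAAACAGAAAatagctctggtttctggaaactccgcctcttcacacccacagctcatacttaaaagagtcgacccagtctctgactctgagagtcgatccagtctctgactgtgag
Irgm1: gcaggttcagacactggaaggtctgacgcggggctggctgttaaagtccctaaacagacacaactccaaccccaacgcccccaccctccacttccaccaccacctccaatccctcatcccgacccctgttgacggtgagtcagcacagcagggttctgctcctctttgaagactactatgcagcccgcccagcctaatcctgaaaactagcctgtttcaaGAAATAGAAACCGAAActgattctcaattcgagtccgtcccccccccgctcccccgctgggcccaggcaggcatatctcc
Gbp3: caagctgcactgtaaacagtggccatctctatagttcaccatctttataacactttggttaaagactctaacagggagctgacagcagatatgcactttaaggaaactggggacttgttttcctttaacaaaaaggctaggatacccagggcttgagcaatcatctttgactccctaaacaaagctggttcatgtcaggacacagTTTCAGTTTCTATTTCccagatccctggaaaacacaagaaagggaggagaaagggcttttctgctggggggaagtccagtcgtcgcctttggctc
Counted from the start, the Rsad2 match begins at position -120 and the Ifit3 matches at -156 and -122. The Isg15 window holds 3 overlapping matches from -78, and those of Irgm1 and Gbp3 overlap as pairs from -30 and -45. In the Egln1_Tie2Cre over Egln1_floxed comparison, the median log2 ratio was -0.72 for the 17 members kept with the response element core and -0.25 for the 17 with a window and no match. The 293 other genes kept with the same match had a median of 0.01, and 8.53% of them were at least 1.5-fold lower, against 8.51% of the 8668 genes kept with a window. Members with the core include 6 GTPases, the class with the lowest median (-0.79), and motif and class were not separated. For the library labelled Egln1_Hif2a_Tie2Cre over Egln1_Tie2Cre, the medians of members with and without the core were 0.57 and 0.42. Over Egln1_floxed they were -0.17 and 0.10.

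Among the antiviral effectors kept, the largest log2 ratios were those of Rsad2, Ifit3, Ifi44 and Ifit1, at -1.91, -1.63, -1.18 and -1.04. Rsad2, which encodes viperin, an enzyme that makes a chain-terminating nucleotide, had 1.98 FPKM in the Egln1_Tie2Cre library, 13.4 in the library labelled Egln1_Hif2a_Tie2Cre and 10.2 in the Egln1_floxed library. The Egln1_Tie2Cre value was 5.15-fold below Egln1_floxed, and the library labelled Egln1_Hif2a_Tie2Cre was 6.75-fold above Egln1_Tie2Cre. Cmpk2, a mitochondrial nucleotide kinase whose gene lies head to head with Rsad2 on chromosome 12, had 1.99, 6.05 and 4.96 FPKM in the same order. Both neighbours had their lowest value in Egln1_Tie2Cre and their highest in the library labelled Egln1_Hif2a_Tie2Cre. Ifi44, an interferon-induced cytoplasmic protein, had 0.605, 4.32 and 2.63 FPKM in the same order, 4.35-fold lower in Egln1_Tie2Cre than in Egln1_floxed.

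The Ifit proteins bind foreign RNA, and Ifit2, Ifit3 and Ifit1 lie together on chromosome 19 (GRCm38 34550694 to 34650009). Ifit3 had 3.33 FPKM in the Egln1_Tie2Cre library, 9.22 in the library labelled Egln1_Hif2a_Tie2Cre and 12.4 in the Egln1_floxed library. Ifit1 had 1.42, 3.36 and 3.99 FPKM and Ifit2 had 4.22, 7.08 and 9.27 FPKM in the same order. All 3 were lowest in Egln1_Tie2Cre and highest in Egln1_floxed, with the library labelled Egln1_Hif2a_Tie2Cre between, in contrast to Rsad2, Cmpk2 and Ifi44. Ifit3 has a near-identical copy, Ifit3b, and its level is uncertain for that reason.

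The Oas enzymes make the second messenger that activates RNase L. Oas2 had 2.37 FPKM in the Egln1_Tie2Cre library, 4.50 in the library labelled Egln1_Hif2a_Tie2Cre and 4.12 in the Egln1_floxed library. Oasl2, an Oas-like protein, had 3.83, 6.21 and 8.19 FPKM in the same order, and Oas1a, which has a near-identical copy in Oas1g, had 1.09, 2.28 and 1.73 FPKM. All 3 were lowest in Egln1_Tie2Cre. The Mx genes encode antiviral dynamin-like GTPases, are near-identical to each other over part of their length, and are defective in most laboratory strains. Mx2 had 0.373, 1.15 and 0.921 FPKM and Mx1 had 0.129, 0.291 and 0.402 FPKM in the same order. Both were under the level at which a ratio was counted, except Mx2 in the library labelled Egln1_Hif2a_Tie2Cre over Egln1_floxed.

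Bst2, or tetherin, which holds budding virus at the cell surface, was the most abundant of the 17 members that were at least 1.5-fold lower. It had 19.8 FPKM in the Egln1_Tie2Cre library, 36.7 in the library labelled Egln1_Hif2a_Tie2Cre and 31.9 in the Egln1_floxed library. Zbp1, a sensor of Z-form nucleic acid that starts necroptosis, had 0.243, 1.73 and 1.53 FPKM in the same order. Its value in Egln1_Tie2Cre was 6.29-fold below Egln1_floxed, at a level that did not pass the filter. Among all members this was the widest plain ratio between Egln1_Tie2Cre and Egln1_floxed. Rtp4, an interferon-induced chaperone of receptor traffic, had 3.79, 7.09 and 6.01 FPKM, and Trim30a, a tripartite motif protein with a near-identical copy in Trim30d, had 3.59, 6.90 and 5.78 FPKM. Both had the order of Bst2, lowest in Egln1_Tie2Cre and highest in the library labelled Egln1_Hif2a_Tie2Cre.

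The other effectors, like Oas1a, Rtp4 and Trim30a, were less than 1.5-fold apart between Egln1_Tie2Cre and Egln1_floxed on the scale of FPKM + 1. Xaf1, a proapoptotic antagonist of XIAP, had 10.3 FPKM in the Egln1_Tie2Cre library, 17.5 in the library labelled Egln1_Hif2a_Tie2Cre and 11.9 in the Egln1_floxed library, so that the library labelled Egln1_Hif2a_Tie2Cre stood above both others. Eif2ak2, the RNA-dependent kinase PKR, had 5.03, 4.77 and 6.32 FPKM in the same order, Adar, the RNA-editing deaminase, had 5.60, 6.45 and 6.41, and Lgals3bp, a secreted galectin ligand, had 16.9, 17.5 and 19.2. Samd9l, a growth-restraining antiviral factor, had 5.27, 4.81 and 4.99 FPKM and was highest in Egln1_Tie2Cre. Ifi27, a mitochondrial or nuclear membrane protein, and Ifi35, a cytoplasmic signalling modulator, were lowest in the Egln1_floxed library. Ifi35 had 16.0, 18.2 and 14.5 FPKM in the same order.

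The ISG15 system attaches the ubiquitin-like protein Isg15 to other proteins. Isg15 itself had 3.49 FPKM in the Egln1_Tie2Cre library, 8.22 in the library labelled Egln1_Hif2a_Tie2Cre and 7.39 in the Egln1_floxed library, 2.12-fold lower in Egln1_Tie2Cre than in Egln1_floxed. Usp18, the protease that removes Isg15 and restrains the interferon receptor, had 2.08, 3.34 and 3.08 FPKM in the same order. Herc6, the mouse ligase of the system, had 1.24, 2.00 and 1.58 FPKM, and Trim25, a ligase that also acts on the RNA sensor Ddx58, had 7.28, 8.12 and 10.2. Uba7, the activating enzyme, went the other way, with 14.6, 13.6 and 11.5 FPKM. Of these 5 genes only Isg15 was 1.5-fold apart between Egln1_Tie2Cre and Egln1_floxed, and Isg15 has a near-identical copy among the annotated transcripts.

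The sensors and the PARP group were lowest in the Egln1_Tie2Cre library for each of their 7 genes. Ddx58 (RIG-I), which detects RNA with a free triphosphate end, had 4.66 FPKM in the Egln1_Tie2Cre library, 6.48 in the library labelled Egln1_Hif2a_Tie2Cre and 7.00 in the Egln1_floxed library. Ifih1 (MDA5), which detects long double-stranded RNA, had 2.29, 3.15 and 3.66 FPKM in the same order, and Dhx58 (LGP2), which modulates both, had 0.972, 1.70 and 1.54. None of the 3 sensors was 1.5-fold apart on the FPKM + 1 scale in any comparison. Parp14, a mono-ADP-ribosyltransferase, had 4.16, 5.95 and 7.18 FPKM, the one gene of its group past 1.5-fold. Parp9 had 7.36, 9.47 and 8.26 FPKM and its partner ligase Dtx3l, whose exons overlap those of Parp9, had 3.73, 4.78 and 4.61. Parp12, which acts on viral translation, had 8.47, 12.0 and 11.1 FPKM.

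The GTPases of the interferon gamma response were lowest in the Egln1_Tie2Cre library without exception among the 8 genes, and 7 of the 8 were highest in the Egln1_floxed library. Igtp (Irgm3), a regulator of the immunity-related GTPases on internal membranes, had 5.16 FPKM in the Egln1_Tie2Cre library, 8.12 in the library labelled Egln1_Hif2a_Tie2Cre and 13.1 in the Egln1_floxed library. Irgm2, the neighbouring regulator on chromosome 11, had 5.03, 6.13 and 10.6 FPKM in the same order. The exons of Igtp and Irgm2 overlap in the annotation, so reads between them are uncertain. Irgm1, which stands apart from that locus and has neither overlap nor copy, had 8.93, 11.5 and 16.9 FPKM. Igtp was 2.55-fold, Irgm2 2.10-fold and Irgm1 1.89-fold lower in Egln1_Tie2Cre than in Egln1_floxed.

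The guanylate-binding proteins Gbp7, Gbp3 and Gbp2, which coat vacuoles of intracellular pathogens, lie together on chromosome 3 (142530342 to 142638008). Gbp3 had 3.70 FPKM in the Egln1_Tie2Cre library, 6.81 in the library labelled Egln1_Hif2a_Tie2Cre and 9.23 in the Egln1_floxed library. Gbp7 had 4.17, 6.56 and 7.53 FPKM and Gbp2 had 7.29, 8.60 and 10.7 FPKM in the same order. All 3 thus had the order of the Irgm genes. Iigp1 (Irga6), an effector GTPase that breaks open vacuoles and the most abundant of this class, had 19.0, 20.7 and 22.9 FPKM. Ifi47, a further member of the family, was the exception in the library labelled Egln1_Hif2a_Tie2Cre, with 2.01, 3.92 and 2.40 FPKM.

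Among the regulators, Irf7 stood out. Irf7, the factor that amplifies type I interferon production, had 4.70 FPKM in the Egln1_Tie2Cre library, 9.22 in the library labelled Egln1_Hif2a_Tie2Cre and 10.9 in the Egln1_floxed library, a 2.31-fold lower value in Egln1_Tie2Cre than in Egln1_floxed. Irf9, the DNA-binding part of the type I complex, had 7.65, 10.2 and 9.36 FPKM in the same order, and its partner Stat2 had 5.12, 5.71 and 5.98. Both were lowest in Egln1_Tie2Cre, by less than 1.5-fold. Irf7 and Irf9 overlap exons of Phrf1 and Rnf31, and their levels are uncertain to that extent.

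By class, the median log2 ratio for Egln1_Tie2Cre over Egln1_floxed was -0.44 over 31 type I effectors kept, -0.79 over 8 GTPases and -0.26 over 3 regulators, against 0.02 for all genes. At least 1.5-fold lower were 11 of the 31 effectors, 5 of the 8 GTPases and 1 of the 3 regulators, against 8.73% of all genes. For the library labelled Egln1_Hif2a_Tie2Cre over Egln1_Tie2Cre, the medians were 0.45, 0.44 and 0.37, against -0.02 for all genes. At least 1.5-fold higher were 13 of the 31 effectors, 2 of the 8 GTPases and 1 of the 3 regulators, against 9.67% of all genes. That comparison uses the same Egln1_Tie2Cre library, so it is not independent of the first. Without the ISG15 system, the PARP group and the RNA sensors, 19 effectors were kept. Their median was 0.71 in that comparison and -0.56 in the first. Between the library labelled Egln1_Hif2a_Tie2Cre and Egln1_floxed the classes differed in sign, at 0.10 over 33 effectors, -0.34 over 8 GTPases and -0.06 over 3 regulators, against 0.00 for all genes. Of the effectors 22 of 33 lay above 0, against 1 of 8 GTPases and 49.4% of all genes. The median of the effectors was also above 0, and that of the GTPases below 0, in every alternative tried.

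**Figure D3:**
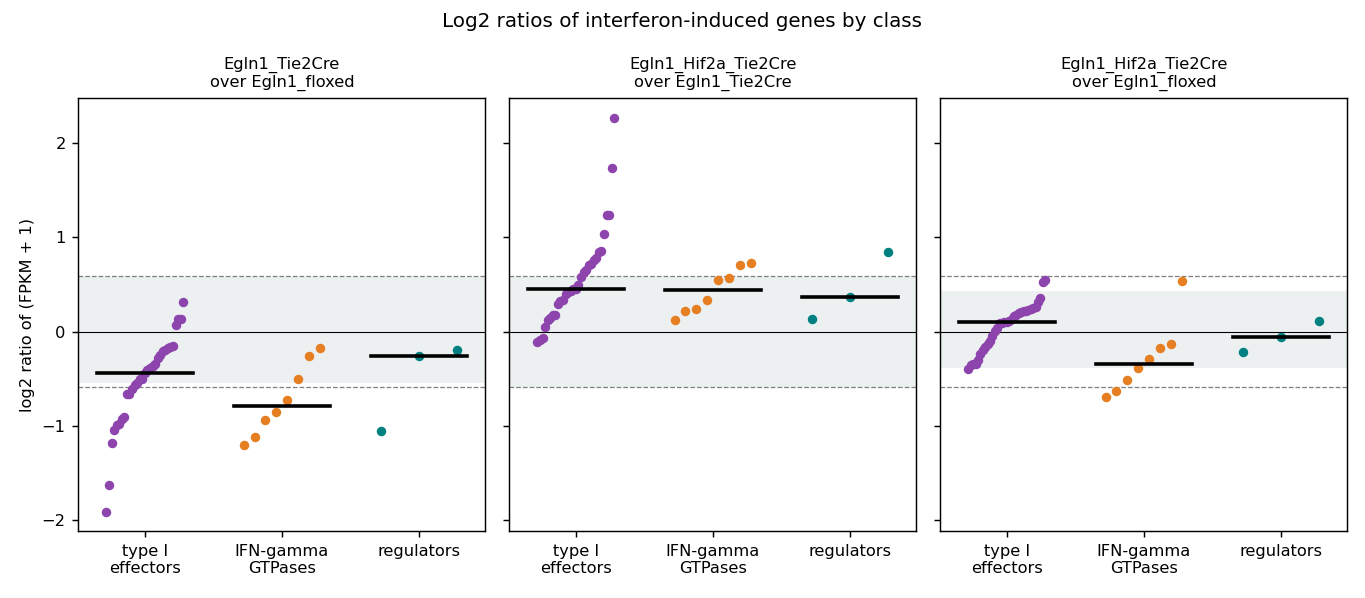
Log2 ratio of (FPKM + 1) for each interferon-induced gene kept, by class, in the 3 comparisons; the bar is the class median, dashed lines mark 1.5-fold, and the gray band holds the middle 80% of all genes kept. GTPases lie lowest in the left panel (median -0.79) and are below 0 for 7 of 8 genes in the right panel, where type I effectors have a median of 0.10.

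In the library labelled Egln1_Hif2a_Tie2Cre, the members were at or above the level of Egln1_Tie2Cre. Of the 42 members kept, 16 were at least 1.5-fold higher, against 9.67% of 11999 genes and 8.44% of those with a mean FPKM of 1 to 20, and 0 at least 1.5-fold lower, against 9.64%. At least 2-fold higher were 5 members (Rsad2, Ifi44, Ifit3, Cmpk2 and Isg15), against 4.31% of all genes. Above 0 were 39 of 42 members, against 47.5% of all genes. The 3 exceptions were Eif2ak2, Samd9l and Uba7. By the authors' deposited table, 0 of 46 members had a q-value of at most 0.05, against 0.571% of all genes, and the smallest was 0.394 for Rsad2.

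In the library labelled Egln1_Hif2a_Tie2Cre against the Egln1_floxed library, the members as a group stayed near the level of all genes. Of the 44 members kept, 0 were at least 1.5-fold higher, against 4.42% of 11888 genes, and 2 at least 1.5-fold lower, against 3.28%. The 2 lower genes were Igtp and Irgm2, the pair with overlapping exons. The median was 0.07, against 0.00 for all genes, and the largest positive ratios were those of Ifi44 (0.55), Ifi47 (0.53) and Xaf1 (0.52). A q-value of at most 0.05 in the authors' deposited table was found for 0 of 46 members, against 0.0135% of all genes.

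The rest of the interferon pathway was read from lists of ligands, receptors, factors, inhibitors, sensing adaptors and further induced genes. Of 8 ligands, only Il15, a cytokine that is itself interferon-induced, had a row in the tables, at 10.1 FPKM in the Egln1_Tie2Cre library, 11.2 in the library labelled Egln1_Hif2a_Tie2Cre and 14.5 in the Egln1_floxed library. The other 7, which include Ifnb1 and Ifng, were not analysed here. Of the 9 receptor and kinase genes kept, 0 were at least 1.5-fold apart between Egln1_Tie2Cre and Egln1_floxed, and the median log2 ratio was -0.003. Over all genes 9.46% were higher and 8.73% lower, so that a list of 9 genes is too short for a count of 0 to set it apart. Ifnar1 had 7.40, 9.26 and 10.1 FPKM and Ifnar2 24.4, 22.4 and 22.4 FPKM in the same order. Ifngr1 had 31.9, 35.0 and 30.6 FPKM and Ifngr2 72.7, 58.8 and 77.4 FPKM. Il10rb, a subunit of the lambda interferon and interleukin 10 receptors, was the most abundant of the list, at 83.8, 69.7 and 80.7 FPKM. Of these receptors, Ifnar1 differed most between Egln1_Tie2Cre and Egln1_floxed, by less than 1.5-fold.

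Irf1, the early factor of the interferon gamma response, had 11.2 FPKM in the Egln1_Tie2Cre library, 13.0 in the library labelled Egln1_Hif2a_Tie2Cre and 13.7 in the Egln1_floxed library. Of 7 transcription factors kept, 1 was at least 1.5-fold higher in Egln1_Tie2Cre than in Egln1_floxed and 0 lower, against 9.46% and 8.73% of all genes. That gene was Irf5, a factor of myeloid cells, with 5.63, 1.93 and 1.85 FPKM, whose exons overlap those of Tnpo3. Stat3, which serves the interleukin 6 family and overlaps Stat5a, had 50.2, 28.4 and 34.7 FPKM, and Irf3, which starts interferon transcription, had 24.0, 29.5 and 21.6. Of 5 inhibitors kept, the phosphatases Ptpn2 (16.2, 10.6 and 8.56 FPKM) and Ptpn11 (94.9, 45.9 and 58.9 FPKM) were at least 1.5-fold higher in Egln1_Tie2Cre. Of 8 sensing genes kept, Trex1, the exonuclease that clears cytosolic DNA, was at least 1.5-fold lower, at 4.10, 5.95 and 7.80 FPKM, and its exons overlap those of Atrip. The adaptor Mavs had 17.7, 17.3 and 25.6 FPKM and Samhd1, which depletes nucleotides, had 18.5, 16.2 and 13.4. The same shares of all genes stand beside the inhibitors and the sensing genes. Lists of 7, 5 and 8 genes are too short for these counts to set them apart. The median log2 ratio was 0.15 for the factors, 0.21 for the inhibitors and 0.02 for the sensing genes, against -0.50 for the members.

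A list of 52 further interferon-induced genes had 41 kept for Egln1_Tie2Cre over Egln1_floxed. Of these 8 stood lower by at least 1.5-fold and 1 stood higher, against 8.73% and 9.46% of all genes. The median was -0.24, against 0.02 for all genes, and 31 of the 41 lay below 0, against 48.1% of all genes. The gene higher was Gbp10, at 5.21 FPKM in the Egln1_Tie2Cre library, 0.661 in the library labelled Egln1_Hif2a_Tie2Cre and 0.586 in the Egln1_floxed library. Its deposited ID had no match in the annotation, where a gene of that symbol overlaps Gbp6 and is a near-identical copy of Gbp11. Of the 8 lower genes, Psme2, an activator of the proteasome, had 11.4, 72.0 and 45.6 FPKM in the same order, and Ifi203, a DNA-binding protein of the Ifi200 family, had 8.13, 19.9 and 16.8. Both have near-identical copies. Ifi27l2a, a relative of Ifi27 with neither overlap nor copy, had 31.2, 56.2 and 48.4 FPKM. Of the remaining 5, Slfn2 had 3.93, 6.69 and 6.92 FPKM, Phf11d 4.11, 9.27 and 7.36, F830016B08Rik 1.91, 1.94 and 6.42, Tgtp1 0.911, 1.75 and 1.97, and Oasl1 0.518, 1.21 and 1.53. All 5 have a copy or an overlapping gene. The most abundant genes of the list were Psme1, at 124, 109 and 121 FPKM, and Ifitm3, which blocks viral fusion, at 95.4, 124 and 115 FPKM. For the library labelled Egln1_Hif2a_Tie2Cre over Egln1_Tie2Cre, 39 were kept, of which 7 stood higher and 1 lower by at least 1.5-fold, against 9.67% and 9.64% of all genes, and the median was 0.24, against -0.02 for all genes. Ifi204 (2.84, 4.79 and 3.79 FPKM) and Mndal (5.90, 14.8 and 8.88 FPKM), of the Ifi200 family, are 2 of the 7. Ifi204 has near-identical copies in Ifi211 and Mndal, and the exons of Mndal overlap those of Ifi203.

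**Figure D4:**
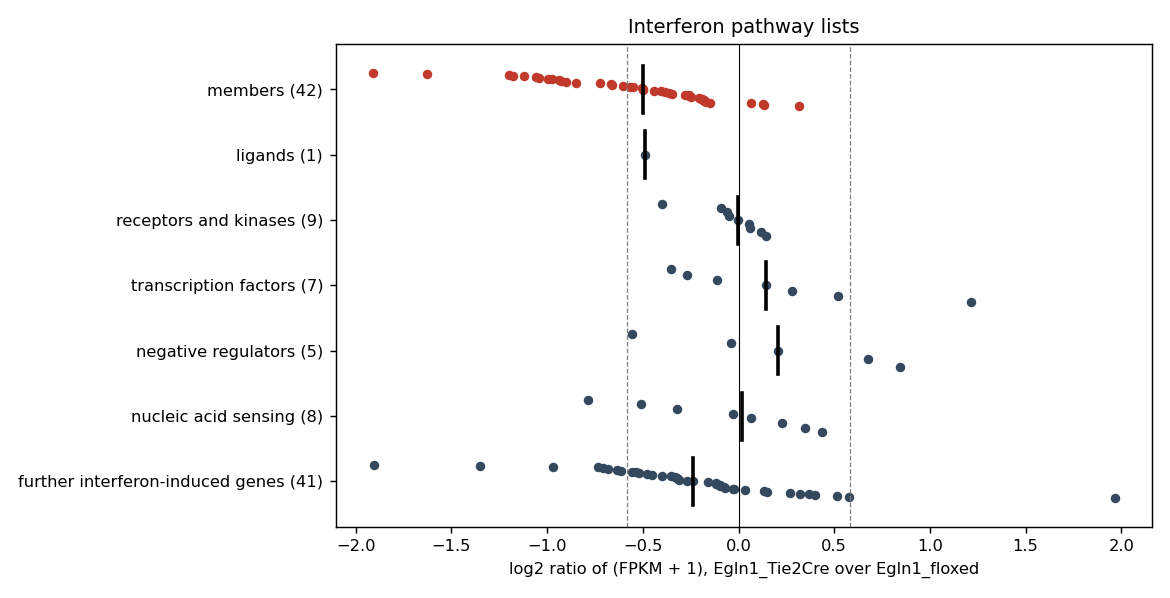
Log2 ratio of (FPKM + 1), Egln1_Tie2Cre over Egln1_floxed, for the interferon-induced genes described here (red, top line) and for the other interferon pathway lists (number of genes kept in brackets); vertical bars are medians and dashed lines mark 1.5-fold. Medians are -0.50 for the members and -0.24 for the further induced genes, and lie at 0.00 for receptors and kinases and at 0.02 for nucleic acid sensing genes.

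Markers of immune and other cell types were read beside these genes. Macrophage and monocyte markers had a summed FPKM of 168.2 in the Egln1_Tie2Cre library, 336.8 in the library labelled Egln1_Hif2a_Tie2Cre and 233.3 in the Egln1_floxed library, over 11 of 12 markers with values. Of the 9 kept, 7 were below 0 for Egln1_Tie2Cre over Egln1_floxed, against 48.1% of all genes. The median of the 9 was -0.37, against 0.02 for all genes. At least 1.5-fold lower was 1 of the 9, against 8.73% of all genes. C1qa, a complement subunit made by macrophages, had 28.5, 60.3 and 42.1 FPKM in the same order, and Csf1r, their growth factor receptor, had 10.3, 10.8 and 10.2. Lyz2, the most abundant of these markers, had 62.5, 153 and 91.9 FPKM and has a near-identical copy, Lyz1. Neutrophil markers went the other way, with summed FPKM of 55.9, 10.03 and 2.15 over 3 of 6 markers. S100a8 contributed 22.7, 3.32 and 0.489 FPKM to these sums, and S100a9 contributed 31.9, 6.30 and 1.47. The 6 of 11 T and NK cell markers with values were each under 1 FPKM in every library, as were the 3 of 4 B cell markers. Dendritic cell markers summed to 66.4, 86.4 and 71.2 FPKM over 4 of 8, of which Bst2 and Irf8 are themselves interferon-induced. Of these sums, Tcf4 made up 42.0, 44.8 and 34.9 FPKM. Endothelial markers summed to 359.1, 312.5 and 271.8 FPKM over 9 of 9, and fibroblast markers to 342.5, 399.1 and 318.7 over 6 of 6. Of the endothelial sums, Vwf alone made up 89.2, 17.8 and 20.4 FPKM in the same order. The median log2 ratio of the 9 endothelial markers was 0.03 for Egln1_Tie2Cre over Egln1_floxed. The part of these markers in the differences of the interferon-induced genes was not tested.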

How the data were processed

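The authors made FPKM values with TopHat2 and Cuffdiff, per the submitters' processing notes. The sources used here name neither their versions nor the build and annotation. Each deposited table sets 1 library against another and holds FPKM, a q-value and a linear fold from the authors, per the file headers, and the fold was not used. Columns were assigned by the sample titles in each table's name and checked on recurring values, which were identical for 14489 of 14489, 14367 of 14367 and 14368 of 14369 shared genes. From these FPKM values the log2 ratio of FPKM + 1 was computed, which understates differences of low genes, and genes whose FPKM averaged at least 1 across the 2 libraries entered. Folds of single genes are plain ratios of FPKM. A gene was counted as apart at 1.5-fold. Each result was read beside all genes kept.

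Overlaps and coordinates came from GENCODE M21 (GRCm38), which matched 15293 of 15503 gene IDs. Near-identical copies were sought with minimap2 2.31-r1302 (at least 95% identity over 200 matching bases). Analysis used Python 3.11.15 and pandas 2.3.3, and the counting was tested on simulated data. The members and lists were chosen with earlier results of these data known. All members are named, and of each other pathway list the interferon receptors, Irf1, the 2 most abundant genes and those at least 1.5-fold apart. One gene that the rule names is not reported here. C1qa, Csf1r, Lyz2, S100a8, S100a9, Tcf4 and Vwf were chosen as examples after their values were seen.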

Additional observations from a re-analysis of the deposited data

How the results depend on the processing

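With 1 library per genotype no result has a replicate check, and no depth is known. No paired analysis was possible because each genotype has 1 library. A median was taken as moved if it shifted by over 0.1 on the log2 scale and a count if it changed by over 1.5 times. For Egln1_Tie2Cre over Egln1_floxed, 17 members were at least 1.5-fold lower, against 7 at 2-fold and 10 of 20 without overlapping or copied genes, where fewer genes were counted. The shares over all genes were 8.73%, 3.84% and 6.09% in the same order. The median of the members was -0.50, and -0.62 with a pseudocount of 0.1. For the library labelled Egln1_Hif2a_Tie2Cre over Egln1_Tie2Cre, 16 were higher, against 5 at 2-fold, 10 of 30 at a mean FPKM of at least 5 and 9 of 20 without overlapping or copied genes. The shares over all genes were 9.67%, 4.31%, 9.7% and 7.02% in the same order. The median of the members was 0.45, and 0.64 with the smaller pseudocount. For that library over Egln1_floxed, 0 were higher, against 2 with the smaller pseudocount (4.42% and 6.4% of all genes). The number lower was 2, against 0 at 2-fold and 0 without overlapping or copied genes (3.28%, 0.437% and 3.09% of all genes). The median of 0.07 was -0.10 at a mean FPKM of at least 5 and -0.059 without overlapping or copied genes, and the cause was not tested. The count of genes lowest in Egln1_Tie2Cre was 41 of 46, and 20 of 22 without overlapping or copied genes, against 37.9% and 37.0% of all genes. Centring by the median of all genes, by that without pseudogenes, ribosomal and mitochondrial genes, or by length and exon number moved none of these counts and medians past those limits. Centring by length and exon number, the background at a mean FPKM of 1 to 20, the settings for the library order and the first-start count of motifs were added after seeing the data. Of 63 class medians under the alternatives, 9 moved, and 1 changed sign, that of the 3 regulators in the library labelled Egln1_Hif2a_Tie2Cre over Egln1_floxed, which was -0.06 and became 0.05 when centred by length and exon number.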
